A study of Mus musculus with 37 samples.

Results

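TRBV26 is 1 of the 21 variable segments of the T cell receptor beta gene that were listed in lymph node repertoires of 37 mice. All entries whose best variable segment was TRBV26 were taken, without regard to any measured value. They numbered 83971 of 1704980 clonotype entries (4.93%), and 180 of them (0.214%) had further variable segments as hits. They held 3089762 of 47131913 reads (6.56%) and 11.5% of the authors' normalised counts. Merged over libraries they were 74336 nucleotide sequences and 54189 amino acid clonotypes. Each entry, or clonotype, gives a rearranged nucleotide sequence, the variable (V) and joining (J) segments it uses, and the hypervariable loop at their joint (CDR3).

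Each T cell builds its beta chain by joining a V, a diversity (D) and a J segment, with bases trimmed from the ends and others inserted. The CDR3 spans that joint and contacts the peptide. TRBV26 carries the older name Vβ3, given as Tcrb-V3 in RefSeq (GRCm38.p6), which places Trbv26 between Trbv25 and Trbv27. It is known as a segment read by superantigens of mouse mammary tumor viruses, which bind the V-encoded face of the receptor, engage T cells largely without regard to the CDR3, and can delete them in strains that carry the provirus. Whether the mice of this study carried such a provirus was not given in the sources used here.

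The study asked how CSF1R inhibition, chemotherapy and anti-PD-1 act on T cells, here in lymph node genomic DNA of 32 female MMTV-PyMT mice, in which a mammary tumor virus promoter drives a tumor-forming transgene, and 5 mice of genotype FVBN and group name WTNT. PLX3397 (pexidartinib, a CSF1R inhibitor) was given in chow from day 80 of life, at a mean of 40 mg per kg daily, and other mice ate control chow. PTX, the chemotherapy, followed from day 85 in doses of 10 mg/kg, and the PD-1 antibody (aPD-1) from day 87 in a first dose of 1.0 mg and later ones of 0.5 mg (or an isotype control), both repeated at 5-day intervals. The d105 set comprised 6 animals labelled PLX+PTX+aPD-1_R (here R), 4 labelled PLX+PTX+aPD-1_NR (NR), 6 PLX+PTX, 2 PTX and 5 WTNT. The d95 set comprised 5 R, 3 NR, 3 PLX+PTX and 3 PTX animals. What R, NR and WTNT stand for is not spelled out in the labels, which name no agent for WTNT in their treatment field. All entries are rearranged beta genes, so the labelled tissue could not be checked against markers of other cells.

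Libraries at d105 held 1090573 to 2831566 reads and those at d95 90648 to 917752. Since every d105 library was deeper than every d95 library, the effects of day and yield cannot be told apart, and each day difference below is also a difference in yield. The library d95 NR replicate 1 had 90648 reads and 100 TRBV26 clonotypes, under 10% of the median total. Pairs of libraries shared a median of 1.82% of the TRBV26 nucleotide clonotypes of the smaller library, and at most 8%.

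The germline end of TRBV26 was read from the 5166 clonotypes from which no V base had been removed, 95.8% of which agreed over these 17 bases. Capitals mark the bases after the fourth codon, the part of the V segment that reaches into the variable loop.

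TRBV26 germline CDR3 end: tgtgccagcagtCTGTC

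The sequence encodes CASS and a leucine codon, and the last V bases begin a serine codon. Most clonotypes kept part of it. No base was removed in 6.15% of TRBV26 clonotypes, 2 bases in 20.4%, 3 in 13.2%, 4 in 21.9% and 6 in 13.5%, and in 8.56% the deposited V match ran past the germline end, where mismatched bases can be counted as V. The protein began with CASSL in 52.5% of clonotypes, with CASSP in 13.2% and with CASSR in 9.16%. At d105, TRBV26 ends had lost 3.27 ± 0.055 bases on average (SD, n = 23 libraries), against 2.88 ± 0.016 for all other V segments. Without the clonotypes whose V or J match ran past its germline end the values were 3.56 ± 0.053 and 3.17 ± 0.018. A D segment was called in 70.2% ± 1.17 of TRBV26 clonotypes, against 78.9% ± 0.66.

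TRBV26 held 11.7% ± 1.15 of normalised counts at d105 (SD, n = 23) and 8.05% ± 0.81 at d95 (n = 14). Every d105 library (9.22 to 14.4%) lay above every d95 library (6.55 to 8.98%). Within each day the groups lay close together, and no treatment comparison of the share passed the threshold. By normalised count TRBV26 had rank 4 or 5 among V segments in every d105 library and rank 6 or 7 in every d95 library, while by reads it took 6.65% ± 0.55 at d105 and 5.36% ± 0.84 at d95, and those ranges overlapped.

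At d105 the shares of normalised counts were 11.2, 12.6 and 13.2% in PLX+PTX (lowest, median, highest, n = 6). They were 11.02, 12.02 and 12.80% in R (n = 6). WTNT mice had 11.4, 12.05, 10.8, 11.8 and 11.7%. The WTNT values lay inside the range of the treated groups. NR mice had 14.4, 10.2, 10.4 and 10.3%, so NR replicate 1 was the highest of all libraries and the other 3 lay below every R mouse. The PTX mice had 11.1 and 9.22%. At d95 the R mice had 8.69, 8.58, 8.58, 8.25 and 7.79%. The NR mice had 7.87, 6.94 and 8.59%, the PLX+PTX mice 8.98, 6.55 and 6.56%, and the PTX mice 8.68, 8.47 and 8.12%. These ranges overlapped with each other.

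**Figure D1:**
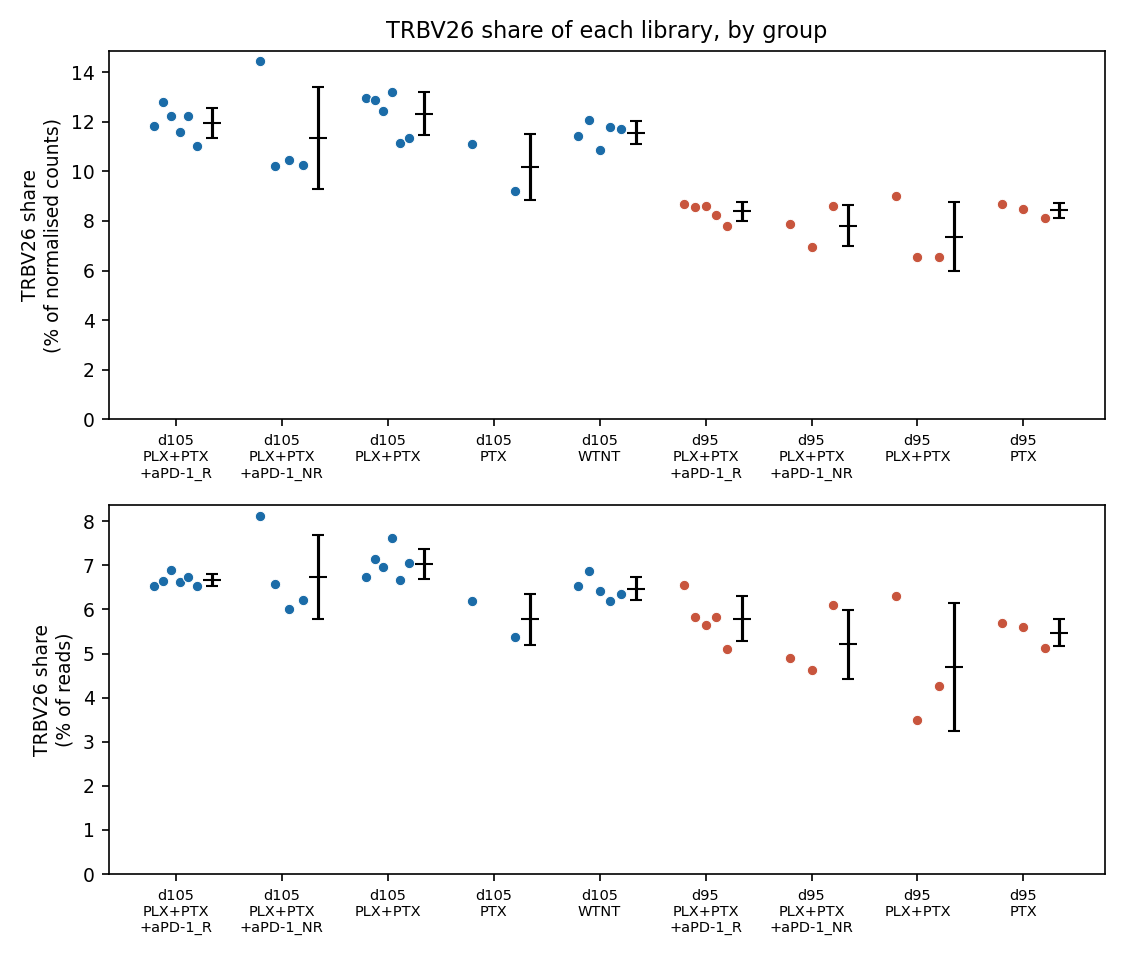
Share of TRBV26 in each library, as percent of normalised counts (upper panel) and percent of reads (lower panel), by group. Points are libraries, blue for d105 and red for d95, and bars are mean ± SD. In the upper panel all d105 libraries (9.22 to 14.4%) lie above all d95 libraries (6.55 to 8.98%), and in the lower panel the days overlap.

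Ordered by mean, the groups ran from d105 PLX+PTX (12.3% ± 0.87) over R (11.9% ± 0.61), WTNT (11.6% ± 0.46), NR (11.3% ± 2.07) and PTX (10.2% ± 1.34) to d95 PTX (8.42% ± 0.29), R (8.38% ± 0.37), NR (7.80% ± 0.83) and PLX+PTX (7.37% ± 1.40). Neighbours in that order had overlapping ranges at every step but the one between the days, from d105 PTX to d95 PTX. That gap was 1.74 percentage points, against an SD of 1.34 in the more variable group.

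Differences were tested with limma on log2 shares of 24 V and J segments, with Benjamini-Hochberg adjustment over them and a threshold of 0.05. The comparisons of aPD-1 and of PLX3397 share the PLX+PTX mice. R minus NR was 0.09 ± 0.08 (SE) at d105 (adjusted p 0.529) and 0.11 ± 0.11 at d95 (adjusted p 0.867). Adding aPD-1 gave -0.08 ± 0.07 at d105 (adjusted p 0.881) and 0.16 ± 0.10 at d95 (adjusted p 0.242). MMTV-PyMT minus WTNT was 0.01 ± 0.06 (adjusted p 0.900). Limma called 0 of the 24 segments (0%) in each of these and in both PLX3397 comparisons. TRBV26 had an unadjusted p under 0.05 in 1 of these 7 comparisons, that of PLX3397 at d105.

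Without d105 NR replicate 1, R minus NR was 0.21 at d105 and passed (limma adjusted p 0.0341). Without d95 PLX+PTX replicate 1, the highest library at d95, aPD-1 gave 0.31 (limma adjusted p 0.0158) and PLX3397 -0.36 (adjusted p 0.0476). In each case 1 library decided the call.

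Adding PLX3397 to PTX at d105 gave TRBV26 its lowest unadjusted p within a day, though aPD-1 at d95 had the lower adjusted p. At d105 its share was 12.3% ± 0.87 with PLX3397 (n = 6) and 10.2% ± 1.34 without (n = 2), with the higher PTX mouse (11.1%) just under the lowest PLX+PTX mouse (11.2%). The log2 difference was 0.28 ± 0.10 and did not pass in limma (p 0.0141, adjusted p 0.339). In reads the groups were 6.67 to 7.63% against 5.37 and 6.19%, and the difference of 0.29 passed (limma adjusted p 0.0205), as did 0.27 in edgeR (adjusted p 0.0143) and 0.27 in DESeq2 (adjusted p 0.0155). With each clonotype counted once it was 0.08 (limma adjusted p 0.467). Both PTX mice came from the higher of 2 blocks of mouse numbers in the labels, while the PLX+PTX mice came from both. With that block as a covariate the difference was 0.29 (limma adjusted p 0.705). At d95 it was -0.21 ± 0.12 (limma adjusted p 0.975), and the change of the effect between the days was 0.49 ± 0.16 (limma interaction, adjusted p 0.0905, 0 of 24 segments called).

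Between the days within treatments, TRBV26 was 0.54 ± 0.06 higher at d105 on the log2 scale (limma adjusted p 7.06e-10), where 20 of 24 segments (83.3%) were called. It was also higher at d105 in reads (0.33), in the authors' second rescaled count (0.47), with each clonotype counted once (0.28), in edgeR (0.23) and in DESeq2 (0.22), each past the threshold.

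TRBV1, TRBV19, TRBV20, TRBV24, TRBV29 and TRBV31 are other segments known to be read by mammary tumor virus superantigens. TRBV31 was listed in no library and the other 5 were tested. Limma called 0 of 5 in each of the 7 comparisons within a day. Between the days 1 was called higher and 3 lower at d105, where 20 of all 24 segments (83.3%) were called. The median log2 difference of the list was -0.49, against 0.00 over all 24 segments. TRBV26 thus lay on the other side of 0 from most of that list. The authors' mean normalised count per read was 0.730 for TRBV19, 0.792 for TRBV1 and 0.889 for TRBV24, the segments called lower. It was 3.91 for TRBV20, called higher, 0.761 for TRBV29, not called, and 2.40 for TRBV26. The part of this scaling was not tested. In the 23 d105 libraries the log2 share of TRBV26 was most like that of TRBV5 (Pearson r 0.451), TRBV23 (0.210) and TRBV30 (0.102). In reads the r with TRBV5 was 0.006. In the 14 d95 libraries it was most like TRBV3 (0.642), TRBV20 (0.577) and TRBV29 (0.463). Shares of 1 library sum to 100%, so these values are descriptions, and a rise of 1 segment and a fall of the others cannot be told apart.

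The choice of J segment set TRBV26 apart from other V segments. Counting each clonotype once, TRBV26 was joined to the TRBJ1 cluster in 34.8% ± 1.47 of clonotypes at d105, against 20.7% ± 0.50 for all other V segments. That gap depends on the unit. In normalised counts at d105 TRBJ1-2 took 4.58 against 1.78% and TRBJ1-3 3.57 against 2.23%. TRBJ1-6 took 2.91 against 2.48% and TRBJ1-5 0.417 against 0.179%, all narrower gaps in percentage points than by clonotypes. TRBJ1-1 (4.35 against 5.40%) and TRBJ1-4 (1.77 against 2.54%) lay below the other V segments in that unit. TRBJ1-2 took 9.27% ± 1.10 of TRBV26 clonotypes over the 37 libraries, against 3.63% ± 0.25 elsewhere, and was above the other segments in 37 of 37 libraries. TRBJ2-3 took 3.52% ± 2.43 against 11.96% ± 0.61 and was below them in all 37.

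All 12 TRBV26 J segments tested passed against the other V segments (limma on log2 ratios per mouse, intercept against 0), but so did 110 of the 124 V-J pairs (88.7%). The pairs are therefore described by their sizes. Among the 124 pairs those of TRBV26 with TRBJ1-2 (1.32 ± 0.02 SE), TRBJ1-3 (1.06 ± 0.04) and TRBJ1-6 (0.97 ± 0.03) had the 3 highest ratios, and TRBJ2-3 (-2.31 ± 0.24) the second lowest. These 3 TRBJ1 segments stayed higher in reads and in normalised counts. TRBJ1-5 was 0.72 higher by clonotypes and -0.08 in reads. TRBJ1-4 was 0.24 higher by clonotypes, -0.99 in reads and -0.48 in normalised counts, and TRBJ1-1 was 0.26 higher by clonotypes and -0.28 in normalised counts. In the TRBJ2 cluster, TRBJ2-2 was 0.23 higher, and TRBJ2-5 (-0.51), TRBJ2-4 (-0.30), TRBJ2-1 (-0.28) and TRBJ2-7 (-0.08) were lower by clonotypes. TRBJ2-4 was 0.06 in normalised counts and TRBJ2-7 0.35 in reads.

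The lower use of TRBJ2-3 did not hold in the authors' normalised counts. Their factor, the normalised count given per read, was the same in every library for a V-J pair. It was 75.5 for TRBV26 with TRBJ2-3, the second highest of 158 pairs. TRBJ2-4 (20.1), TRBJ2-5 (19.95) and TRBJ2-1 (9.56) were also scaled up, TRBJ2-7 had 2.52 and TRBJ1-2 had 0.942. The mean over TRBV26 was 2.40, rank 4 of 21 V segments. In normalised counts the ratio for TRBJ2-3 was -0.33 (limma adjusted p 0.262). That value spans both days: TRBJ2-3 was above the other V segments in 22 of 23 libraries at d105 (15.8 against 8.25%) and in 0 of 14 at d95 (1.38 against 6.18%).

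**Figure D2:**
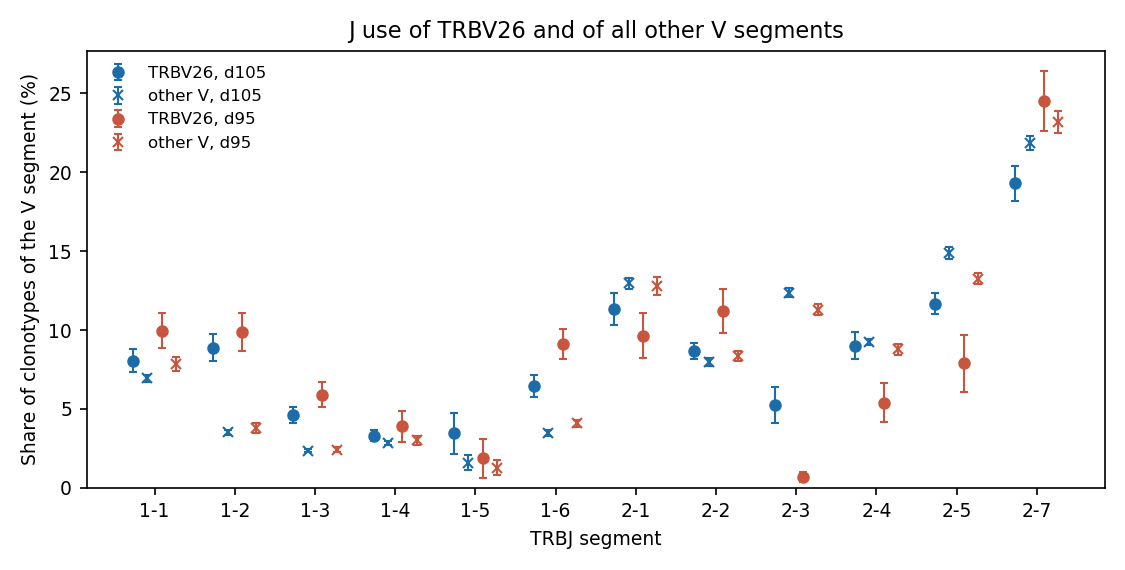
Share of clonotypes with each TRBJ segment for TRBV26 (circles) and for all other V segments (crosses), at d105 (blue) and d95 (red), each clonotype counted once. Points are means over libraries and bars the SD. TRBJ2-3 is the segment with the widest gap, 5.25% of TRBV26 clonotypes at d105 and 0.689% at d95, against 12.4 and 11.3% for the other segments.

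On the log2 scale TRBJ2-3 was also the J segment whose use by TRBV26 differed most between the days. In percentage points TRBJ2-7, at 19.3% and 24.5%, differed more. TRBJ2-3 took 5.25% ± 1.17 of TRBV26 clonotypes at d105 (2.51 to 7.06%, n = 23) and 0.689% ± 0.31 at d95 (0 to 1.09%, n = 14), with no overlap. For all other V segments together it took 12.4% ± 0.29 and 11.3% ± 0.33. Of the other V segments, TRBV3 (11.7 and 6.92%) and TRBV4 (10.4 and 7.92%) also had less TRBJ2-3 at d95. On the log2 scale those differences were 0.75 and 0.40, against 2.76 for TRBV26, while in percentage points the one of TRBV3 was slightly wider than that of TRBV26.

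At d105 TRBJ2-3 took 3.92, 5.92 and 6.67% of TRBV26 clonotypes in the R mice (lowest, median, highest). The PLX+PTX mice had 4.02, 5.58 and 5.90%. The NR mice had 7.06, 2.51, 4.53 and 2.98%, the PTX mice 6.19 and 5.43%, and the WTNT mice 4.48, 5.21, 3.88, 5.76 and 6.13%. The d105 groups overlapped. At d95 the R mice had 0.743, 0.998, 0.804, 0.815 and 0.938%, the NR mice 0, 0.712 and 1.09%, the PLX+PTX mice 1.04, 0.406 and 0.394%, and the PTX mice 0.570, 0.811 and 0.321%. Each d95 value rested on few clonotypes, 0 to 13 per library, against 62 to 286 at d105.

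Yield moved with this difference. TRBV26 TRBJ2-3 clonotypes had a median of 5 reads at d105 and 2 at d95, against 10 and 7 for TRBJ2-3 clonotypes of other V segments, while TRBV26 TRBJ2-7 clonotypes had 52 and 50. With each V segment of each library thinned to 1390 reads, which left out the library with 90648 reads, TRBJ2-3 took 1.24% ± 0.41 of TRBV26 clonotypes at d105 (0.410 to 1.88%, n = 23) and 0.130% ± 0.045 at d95 (0.070 to 0.217%, n = 13). The log2 difference was 2.55 ± 0.16 (limma adjusted p 1.00e-14), the highest of 107 pairs, of which 71 (66.4%) were called. The libraries nearest in TRBV26 reads across the days were d105 PTX replicate 2, with 58604 reads and 5.43% TRBJ2-3, and d95 R replicate 1, with 53491 reads and 0.743%. They are 1 pair from different treatments, and at 1390 reads they gave 530 and 689 TRBV26 clonotypes. No conclusion on yield can be drawn from them. Thinning equalises reads, not DNA molecules or library preparation, whose part in the day difference was not tested.

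In normalised counts TRBJ2-3 took 15.8% ± 4.30 of TRBV26 at d105 and 1.38% ± 0.56 at d95, and in reads 0.832% ± 0.29 and 0.042% ± 0.017. The log2 difference of the normalised pairing was 3.58 ± 0.27 (limma adjusted p 3.54e-13). Of the 12 TRBV26 pairs, 11 were called between the days, against 96 of 124 pairs of all segments (77.4%). TRBJ2-4 (1.30), TRBJ2-5 (1.18), TRBJ1-5 (0.71) and TRBJ2-1 (0.68) were higher at d105. TRBJ1-6 (-1.23), TRBJ2-7 (-1.09), TRBJ2-2 (-0.90), TRBJ1-2 (-0.57), TRBJ1-3 (-0.45) and TRBJ1-1 (-0.31) were lower, and TRBJ1-4 (-0.10, limma adjusted p 0.517) was not called. Thinned and with each clonotype counted once, TRBJ1-2 was 0.22 higher at d105 and TRBJ1-1 0.04, the other way from the normalised counts. Log2 differences of the day means were 1.21 for TRBJ2-5 and 1.27 for TRBJ2-4 with TRBV26. They were 1.25 and 1.08 with TRBV3, 1.38 and 1.31 with TRBV4 and 2.35 and 2.48 with TRBV5. The remaining V segments compared had smaller ones.

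The TRBV26 pairs were ordered much as their factors were. In normalised counts all 5 pairs with a factor above 6 were higher at d105, and all 6 with a factor under 5 were lower. In reads TRBJ1-1 (12.5 against 9.16%), TRBJ1-2 (18.7 against 16.9%) and TRBJ1-3 (3.06 against 2.53%) had higher means at d105. TRBJ1-6, TRBJ2-2 and TRBJ2-7, also with factors under 5, were lower at d105 in both units. Across the 12 TRBV26 pairs the log2 factor and the day difference in normalised counts had a Pearson r of 0.925 and a Spearman rho of 0.888. Across 111 pairs of other V segments they were 0.554 and 0.409. These are correlations across pairs that share the same libraries, and pairs are not independent replicates. Thinned and with each clonotype counted once, TRBJ2-3 (2.55), TRBJ2-4 (1.19) and TRBJ2-5 (1.09) had the highest day differences of the TRBV26 pairs. Of the 12, 11 were called, against 71 of 107 pairs of all segments (66.4%). The factors do not enter these thinned values, but thinning drew from reads. The median TRBV26 clonotype at d105 had 5 reads with TRBJ2-3, 9 with TRBJ2-4 and 11 with TRBJ2-5, against 52 with TRBJ2-7. The factor of a pair was the same in every library. Scaling by it therefore moves the log2 day differences of all TRBV26 pairs by about a common amount. In reads, without the factor, TRBJ2-3 took 0.832% at d105 against 0.042% at d95. TRBJ2-4 took 2.51 against 0.601% and TRBJ2-5 3.78 against 0.945%. Why the pairs with high factors differed more between the days was not tested, and neither was the part of reads per clonotype.

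**Figure D3:**
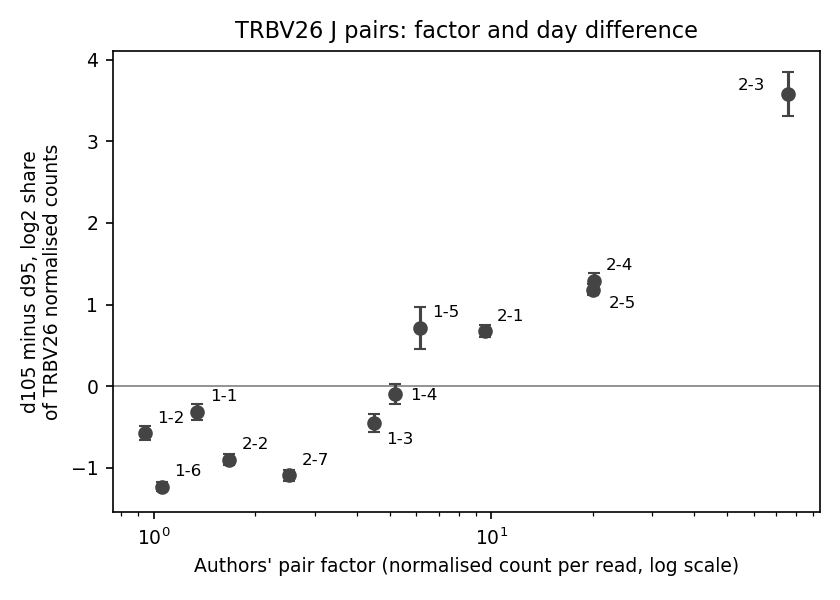
Day difference of the 12 TRBV26 J pairs (d105 minus d95, log2 share of TRBV26 normalised counts, points with SE bars) against the authors' factor for the pair (normalised count per read, log axis). TRBJ2-3, with the highest factor (75.5), has the highest difference (3.58), and the 6 pairs with a factor under 5 lie below 0.

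The 7 comparisons within a day gave no call for a TRBV26 pair. Limma called 0 of 124 V-J pairs (0%) in each, with 1 to 15 at an unadjusted p under 0.05. TRBV26 with TRBJ1-1 had the lowest p, 0.51 ± 0.13 higher with aPD-1 at d95 (p 0.00224, adjusted 0.139), and without d95 PLX+PTX replicate 1 a TRBV26 pair passed (1 of 12). TRBV26 with TRBJ1-6 was 0.32 ± 0.11 higher with PLX3397 at d105 (limma p 0.0104, adjusted 0.259). Thinned and with each clonotype counted once it was 0.38 ± 0.10 higher and passed (limma adjusted p 0.0494), 1 of the 2 pairs called among 107 (1.87%). That alternative was chosen after the data were seen.

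TRBV26 CDR3s were short. They averaged 13.67 ± 0.07 amino acids (SD, n = 37 libraries, each clonotype counted once), against 14.06 ± 0.05 for all other V segments. The difference of -0.390 ± 0.036 had the same sign in 37 of 37 mice (permutation of signs, 2-sided, p 1e-05, the smallest that 100000 resamples can give). It was -0.422 weighted by reads and -0.291 weighted by normalised counts. Within J segments, weighted by the J use of the other V segments, it was -0.375, and the TRBV26 mean was the lower in all 12 J segments, from -0.143 with TRBJ1-1 to -0.496 with TRBJ1-6. TRBV26 was ninth in length among the 12 V segments compared.

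TRBV26 had higher shares than the others at 11 to 14 amino acids and lower ones at 15 to 17. CDR3s of 12 amino acids made up 11.9% ± 1.22 against 8.44% ± 0.44, and those of 16 made up 5.59% ± 0.91 against 9.63% ± 0.64. CDR3s of 13 amino acids made up 26.3% ± 1.29 of TRBV26 clonotypes and 20.01% ± 0.56 of the others, those of 14 made up 32.6% ± 1.498 and 30.2% ± 0.36, and those of 15 made up 17.1% ± 1.14 and 24.5% ± 0.64. TRBV26 ends had lost more V bases than all other V segments together, as given above. TRBV26 clonotypes held on average 3.54 ± 0.05 inserted bases at d105 against 3.64 ± 0.04, or 3.69 ± 0.06 against 3.78 ± 0.04 without matches past a germline end. Over all libraries TRBV26 had lost 3.26 V bases. TRBV3 and TRBV24 had lost 3.27 and 3.35 but had longer CDR3s, at 13.89 and 14.15 amino acids. TRBV29 and TRBV4 had lost 4.19 and 4.64, with CDR3s of 13.63 and 13.75. TRBV5 and TRBV2 had lost 1.63 and 1.65 and had the longest CDR3s, at 14.52 and 14.38. The part of V trimming in the shorter CDR3s was not tested.

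**Figure D4:**
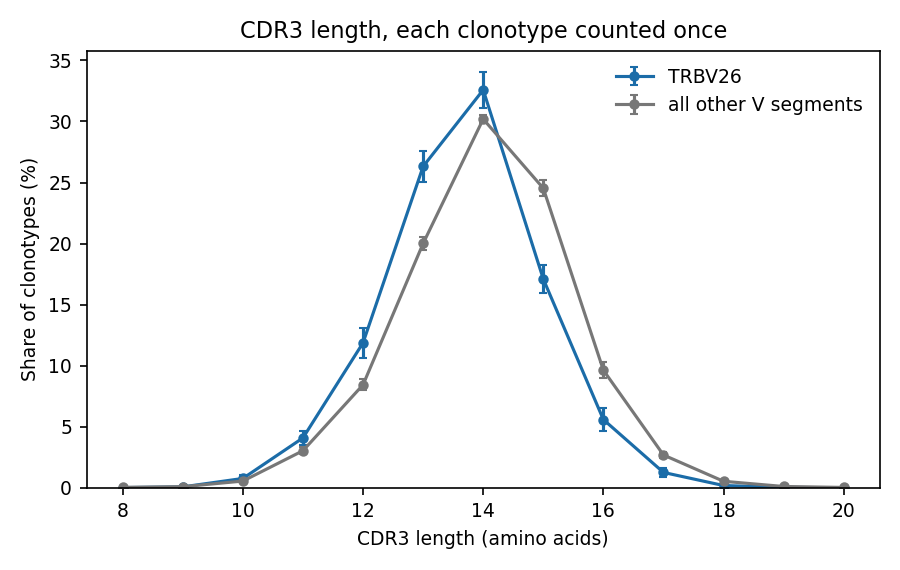
CDR3 length of TRBV26 clonotypes (blue) and of clonotypes with other V segments (grey), in amino acids, each clonotype counted once. Points are means over 37 libraries and bars the SD. TRBV26 is higher at 13 amino acids (26.3 against 20.01%) and lower at 15 (17.1 against 24.5%).

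Between the days the TRBV26 mean was 0.11 ± 0.02 amino acids longer at d105 (limma adjusted p 1.17e-06), as were all 12 V segments tested (12 of 12 called, 100%). It was 13.71 ± 0.03 at d105 and 13.60 ± 0.06 at d95. Weighted by reads the difference was 0.000997 (limma adjusted p 0.968), and at 1390 reads per V segment it was -0.02 ± 0.02 (limma adjusted p 0.514, 3 of 10 segments called, 30%). Weighted by normalised counts it was 0.18 ± 0.02 (limma adjusted p 7.70e-08). The difference was therefore seen at full depth with each clonotype counted once or with normalised counts as weights. It was not seen with reads as weights or at equal reads. Within a day, limma called 0 of 12 V segments (0%) in each of the 7 comparisons, and TRBV26 had an unadjusted p of at least 0.134. At 1390 reads, TRBV26 CDR3s were shorter by 0.08 with PLX3397 at d105 (difference -0.08, limma adjusted p 0.0143), where 4 of 10 segments (40%) were called.

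Residues were counted in the loop, the CDR3 without its first 4 and last 6 residues. Of the 20 amino acids 18 passed against other V segments, as did 218 of 240 combinations of V segment and amino acid (90.8%). Leucine was highest, at 17.2% of TRBV26 loop residues against 8.33% (log2 1.03), followed by serine (8.66 against 6.49%) and arginine (9.49 against 7.48%). Glutamate (1.05 against 2.11%, log2 -0.96), alanine (3.84 against 7.04%) and isoleucine (0.871 against 1.54%) were lowest. At position 5, which the germline leucine codon covers, the residue was leucine in 54.5% ± 1.86 of TRBV26 clonotypes and in 20.5% ± 0.39 of the others. With the first 5 and last 5 residues left out, leucine turned to -0.44 and isoleucine to 0.25. At position 6, serine, which the last germline bases begin, stood in 16.3% ± 1.59 against 4.91% ± 0.21, and aspartate in 9.57% ± 0.95 against 16.96% ± 0.43.

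Most TRBV26 receptors were private. Of the 54189 amino acid clonotypes, 44008 (81.2%) occurred in 1 library, against 80.2% for other V segments. Public TRBV26 clonotypes were few: 47 occurred in at least 19 of the 37 libraries, 0.867 per 1000 clonotypes, against 2.64 per 1000 for other V segments together. TRBV20 (0.632), TRBV29 (0.589), TRBV23 (0) and TRBV30 (0) had still fewer per 1000. The remaining segments compared had more, up to 4.71 for TRBV1. No TRBV26 clonotype occurred in more than 29 libraries. Among the 47, TRBJ2-7 had 22, TRBJ1-2 and TRBJ1-6 had 6 each, and TRBJ1-1 had 5.

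The public clonotypes were closer to germline than the private ones. Entries of the 47 averaged 12.6 amino acids and 2.04 inserted bases, and 28.5% had no inserted base. Entries of clonotypes found in 1 library averaged 13.96 amino acids and 4.29 inserted bases, and 5.45% had none. Without matches past a germline end, 29.8% of public and 3.96% of private entries had no inserted base. CASSL opened 92.2% of public and 42.5% of private entries. A public clonotype was written by 12.3 nucleotide sequences on average and a private one by 1.02. These are descriptions of clonotypes grouped by how often they were found. The 47 took 2.21% ± 0.41 of TRBV26 normalised counts at d105 and 4.80% ± 1.42 at d95, although fewer of them were found per library at d95 (17.7 against 32.8).

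The clonotypes found in most libraries were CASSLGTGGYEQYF (TRBJ2-7, 29 libraries, mean 158 normalised counts per 1000000, CPM), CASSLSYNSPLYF (TRBJ1-6, 29), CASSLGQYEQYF (TRBJ2-7, 27), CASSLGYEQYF (TRBJ2-7, 26) and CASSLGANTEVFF (TRBJ1-1, 26). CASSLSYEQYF, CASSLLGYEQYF and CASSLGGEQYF with TRBJ2-7 were in 24 libraries each, and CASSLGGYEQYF and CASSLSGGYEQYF with TRBJ2-7 in 23. Each was reached by many nucleotide sequences, shown here for the ones that carry the results. Capitals mark the bases between the deposited V and J matches.

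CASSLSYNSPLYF, form 1: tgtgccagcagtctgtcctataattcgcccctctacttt
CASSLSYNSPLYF, form 2: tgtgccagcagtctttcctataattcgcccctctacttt
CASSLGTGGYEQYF, form 1: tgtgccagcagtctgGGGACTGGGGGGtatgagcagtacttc
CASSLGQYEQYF, form 1: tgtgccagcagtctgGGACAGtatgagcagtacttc
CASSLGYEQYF, form 1: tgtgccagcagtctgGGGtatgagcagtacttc
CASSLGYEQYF, form 2: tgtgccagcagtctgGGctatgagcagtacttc
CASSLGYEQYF, form 3: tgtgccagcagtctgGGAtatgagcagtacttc
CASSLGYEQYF, form 4: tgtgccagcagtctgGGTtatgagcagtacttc

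Form 1 of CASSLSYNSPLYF joins the full germline end to TRBJ1-6 and was in 18 libraries, and form 2 was in 9. Form 1 of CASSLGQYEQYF was also in 18. The 4 forms of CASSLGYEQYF differ in the last base of the glycine codon, were in 11, 11, 7 and 7 libraries, and belong to 15 forms in all. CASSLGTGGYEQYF had 23 forms, of which the most frequent was in 6 libraries.

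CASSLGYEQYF was the TRBV26 clonotype called within a day. Of the 14 TRBV26 clonotypes among 964 shared ones tested at d95 it was the 1 called for R minus NR, where 2 of the 964 were called (0.207%), and the 1 called for PLX3397, where it was the only call (0.104%). At d95 the R mice had 161, 307, 125, 687 and 351 CPM and the PLX+PTX mice 355, 362 and 244. No read was found in the NR and PTX mice. The limit set by 3 reads was 60.6, 11.8 and 8.36 CPM in the NR mice and 11.7, 10.1 and 19.6 in the PTX mice. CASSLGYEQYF passed the filter, which asked for a read in 50% of the libraries compared, only through the groups in which it was high, so both calls are conditional on that. The groups did not overlap, and the R mean was 12.1-fold the mean NR limit. This limit covers the counting of reads and not how many cells were sampled.

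The limma log2 difference for R minus NR was 4.83 ± 0.86 (adjusted p 0.00530), and without any 1 library it ran from 4.50 to 5.09 (adjusted p 0.00701 to 0.0451). For PLX3397 it was 5.02 ± 0.96 (adjusted p 0.0271), and the call was lost without any 1 of the 6 libraries (adjusted p 0.0809 to 0.193). Both calls were lost with a pseudocount of 1 instead of 10 CPM (adjusted p 0.0935 and 0.577), and such fitted differences depend on that number.

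At d105 the pattern was another one. The NR mice had 116, 118, 118 and 106 CPM, the R mice 0, 73.6, 475, 276, 0 and 0, the PLX+PTX mice 315, 292, 205, 240, 34.3 and 167, the PTX mice 0 and 0, and the WTNT mice 138, 227, 128, 191 and 210. The change of R minus NR between the days was -6.21 ± 1.18 (limma interaction, adjusted p 0.00958, 3 of 2554 clonotypes called, 0.117%). This interaction was chosen after the data were seen. In PTX mice of both days no TRBV26 form was found, while the same CDR3 was found with TRBV3, TRBV24 and TRBV29 in all 5 of them. Over all libraries the CDR3 occurred with TRBV3 in 36, with TRBV24 in 32 and with TRBV29 in 30. With TRBV3 it was found in 2 of 3 d95 NR mice, and with TRBV24 and TRBV29 in 1 of 3 each.

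**Figure D5:**
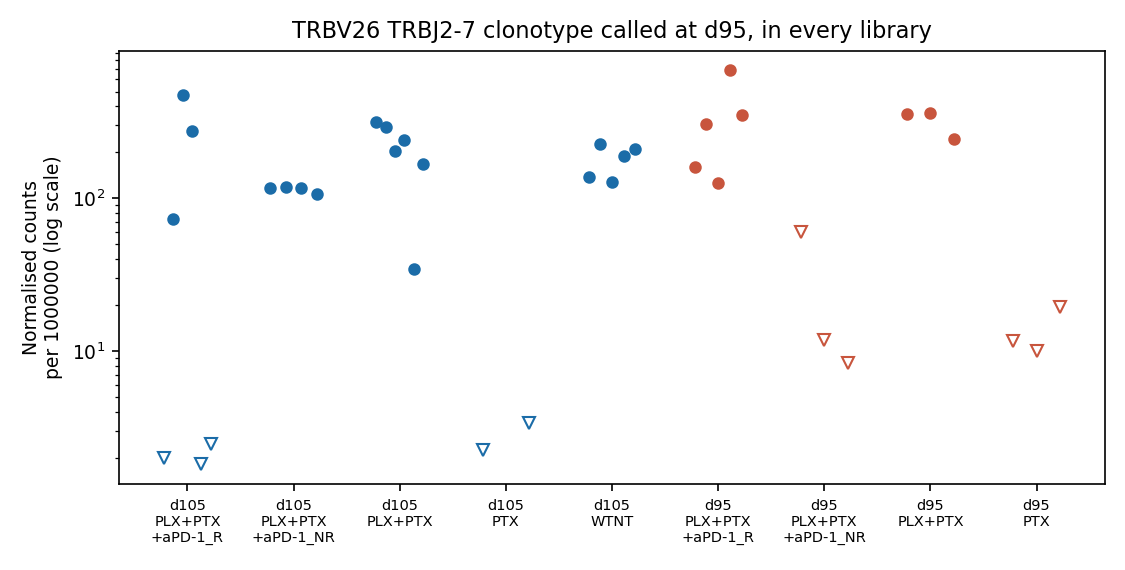
TRBV26 TRBJ2-7 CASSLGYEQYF in each library, in normalised counts per 1000000 (log axis), by group, blue for d105 and red for d95. Filled points are measured values and open triangles are the limit of 3 reads in libraries where no read was found. At d95 it was measured in all R and PLX+PTX mice (125 to 687) and in no NR or PTX mouse.

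Between the days 5 of 48 TRBV26 clonotypes tested were called, against 135 of 2394 shared clonotypes (5.64%). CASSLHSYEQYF (TRBJ2-7) was lower at d105, by a log2 difference of -3.05 ± 0.47 (limma adjusted p 0.000102). It was found in 13 of 14 d95 libraries, with a median of 142 CPM and a maximum of 323, and in 7 of 23 d105 libraries, with a maximum of 106. The limit of 3 reads in d105 libraries was at most 3.37 CPM, a bound on read counting alone. It had no read in the 6 R mice and the 2 PTX mice at d105, and was in 3 of 4 NR, 2 of 6 PLX+PTX and 2 of 5 WTNT mice. The R mean at d95, 154 ± 113 CPM, was 83.3-fold the mean d105 R limit. This fold was taken for R because that group had no read at d105. The d105 means of the NR, PLX+PTX and WTNT mice were 40.2, 16.6 and 35.6 CPM. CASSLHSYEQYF passed the filter on libraries with a read mainly through d95, where it is high, so its call is conditional on that. The most frequent form of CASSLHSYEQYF, with 3 bases between V and J, was in 14 libraries.

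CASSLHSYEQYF, form 1: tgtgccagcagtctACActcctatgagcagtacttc
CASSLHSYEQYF, form 2: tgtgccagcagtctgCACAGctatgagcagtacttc

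Form 1 held 692 reads over its 14 libraries, and form 2 held 170 reads in 2 libraries. The 4 clonotypes called higher at d105 were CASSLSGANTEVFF (1.74) and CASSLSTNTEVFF (1.34) with TRBJ1-1, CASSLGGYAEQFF with TRBJ2-1 (1.59) and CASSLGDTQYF with TRBJ2-5 (2.41). All 4 passed the 50% filter through d105, where they are high, and a clonotype found only in the 14 d95 libraries could not have passed it. For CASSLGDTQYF the d105 median was 104 CPM and the limit of 3 reads at d95 ran from 39.9 to 479, so a fall at d95 was not detectable there in part of the libraries. For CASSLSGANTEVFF, found in 19 of 23 and 2 of 14 libraries, the d105 median was 29.5 CPM and the d95 limits ran from 2.69 to 32.3. The number of calls was 2 to 7 without any 1 library and 3 without d95 NR replicate 1.

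In the other 5 comparisons limma called 0 TRBV26 clonotypes. At d105 134 TRBV26 clonotypes were among 5242 tested, none of the 5242 were called (0%), and 8 to 14 of the TRBV26 clonotypes had an unadjusted p under 0.05 in each comparison. At d95 4 of 14 had one for aPD-1, where 0 of 964 were called (0%). The share of all tested clonotypes with such an unadjusted p is not given here, so these counts show nothing particular to TRBV26.

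TRBV26 clonotypes had median sizes near those of other V segments at d105 and above them at d95, and larger sizes at the 90th percentile on both days. The median clonotype had 17 reads at d105 (18 for other V segments) and 26.5 at d95 (19.5), as medians over libraries. The 90th percentile was 86 reads at d105 against 58, and 76.5 at d95 against 59.5. The largest clonotype had 835 reads at d105 as a median over libraries and 261 at d95, against 2075 and 444 for the largest of all other V segments.

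The largest TRBV26 clonotype by reads was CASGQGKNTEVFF with TRBJ1-1 in d105 PLX+PTX replicate 4, with 4955 reads, 0.262% of the library (95% Wilson interval 0.255 to 0.269). It was found in no other library. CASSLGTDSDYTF with TRBJ1-2 led in d105 NR replicate 1, with 0.232% of reads (0.225 to 0.239) in a form seen in no other library. Its deposited V match runs past the germline end with mismatches, so it shows no capitals although its bases leave the germline there. In the R group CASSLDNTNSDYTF with TRBJ1-2 held 0.0788% of reads in replicate 2, and in WTNT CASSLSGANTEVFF with TRBJ1-1 held 0.118% in replicate 2. In the PTX group the public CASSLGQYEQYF led, with 0.0672% in replicate 1.

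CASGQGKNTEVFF: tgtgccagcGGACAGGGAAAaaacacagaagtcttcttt
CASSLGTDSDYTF: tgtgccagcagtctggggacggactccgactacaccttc

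At d95 the leaders by reads were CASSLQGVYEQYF in NR replicate 1 (128 reads, 0.141%, interval 0.119 to 0.168), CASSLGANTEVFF in R replicate 4 (0.105%), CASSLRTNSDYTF in PLX+PTX replicate 2 (0.0781%) and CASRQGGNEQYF in PTX replicate 3 (0.0633%). By normalised count the leaders were others in 5 of the 9 groups, and at d105 those of the R, PLX+PTX and WTNT groups were TRBJ2-3 clonotypes. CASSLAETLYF led in R with 91 reads (0.153% of normalised counts), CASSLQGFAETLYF in PLX+PTX with 302 reads (0.556%) and a clonotype of 46 reads in WTNT (0.117%). At d95 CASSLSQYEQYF led in R (0.128%) and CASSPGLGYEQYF in PLX+PTX (0.109%).

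After thinning to 1390 reads, the 10 largest TRBV26 clonotypes held 5.02% ± 1.66 of TRBV26 reads at d105 (n = 23) and 7.43% ± 1.78 at d95 (n = 13). The ranges, 3.60 to 10.9% and 5.04 to 11.9%, overlapped. The log2 difference was -0.59 ± 0.12 (limma adjusted p 3.64e-05), in a comparison in which all 10 V segments were called (10 of 10, 100%). The same 1390 reads came from 894 ± 98 clonotypes at d105 and 491 ± 110 at d95. Within a day TRBV26 was not called in any of the 7 comparisons. Limma called 2 of 10 segments (20%) for PLX3397 at d105 and 0 of 10 (0%) in the other 6, and TRBV26 had an unadjusted p of at least 0.102 in all 7. With the 50 largest clonotypes the PLX3397 difference at d105 was -0.39 (limma adjusted p 0.00659), where 9 of 10 segments were called (90%). Without d95 PLX+PTX replicate 1, aPD-1 gave -0.55 at d95 (limma adjusted p 0.0285).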

How the data were processed

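Beta chain repertoires of lymph node genomic DNA were compared in 37 mice, 1 library each, so p-values measure the spread between mice. The deposited clone counts are reads per clonotype, per the file headers. The normalised clone count and a second rescaled count in the same files were treated as scores: the authors multiplied reads by a factor per V-J pair, which was read back from the deposited values, is constant across libraries and leaves depth unscaled. No source used here names the aligner, the clonotype caller, the genome build or the origin of the factors.

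Shares, V-J pairs (percent of the V segment), CDR3 length, concentration and shared clonotypes were tested with limma 3.58.1 (R 4.3.3) on log2 values (length untransformed), with pseudocounts of 0.01 (percent), 0.1 (pairs) and 10 (CPM), and Benjamini-Hochberg adjustment over all features. Segments under 0.1% were left out, and clonotypes had to be found in 50% of the libraries compared. Thinning took 1390 reads per V segment, averaged over 20 draws. There were 8 comparisons over 9 groups. Alternatives used reads, the second score, clonotypes counted once, edgeR 4.0.16, DESeq2 1.42.0, other pseudocounts and filters, the block of mouse numbers and each library left out. Thinned length, thinned pairing, length within J, the interactions and the values without matches past a germline end were chosen after seeing the data. Scripts were tested on simulated data. Named items are TRBV26 in every library, its J segments, clonotypes called in any comparison, the 10 found in most libraries, the largest of each group, the 3 likest segments per day, and the 3 highest and lowest residues. Members and lists were chosen with earlier results of these data known. Intervals and 3-read limits cover counting error only.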

Additional observations from a re-analysis of the deposited data

Results flagged for a closer look

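In d105 NR replicate 1 TRBV26 held 14.4% of normalised counts, against 10.2 to 10.4% in the other 3 NR mice, a gap wide enough to stand apart from its group. The same library stood apart in its share of clonotypes, 6.09% against 4.61 to 4.71%, and in the share of thinned TRBV26 reads held by the 10 largest clonotypes, 7.47% against 3.83 to 4.08%. In d105 PLX+PTX replicate 4, which holds the largest TRBV26 clonotype, the 10 largest held 10.9% of thinned reads, against 3.92 to 6.48% in the other 5. In d105 PLX+PTX replicate 6, TRBJ2-3 took 4.02% of TRBV26 clonotypes, against 5.31 to 5.90%. Over 9 measures 45 groups were examined and 5 values stood apart, while chance gives about 1 in 20 groups.

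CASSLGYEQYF with TRBJ2-7 differed between the days in R minus NR, with an interaction of -6.21 (limma adjusted p 0.00958): at d95 it was measured in 5 of 5 R and 0 of 3 NR mice, and at d105 in 3 of 6 R and 4 of 4 NR mice.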

How the results depend on the processing

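No paired analysis was possible because replicate numbers were given in accession order and pair no mice. The TRBV26 share for R minus NR at d105 was -0.0047 in reads, -0.029 in edgeR and -0.033 in DESeq2. For PLX3397 at d105 it passed in reads (0.29), the second score (0.28), edgeR (0.27) and DESeq2 (0.27). Length differences turned sign for aPD-1 at d105 in reads (0.021) and thinned (0.00194), for PLX3397 at d105 in normalised counts (-0.022), reads (-0.050) and thinned (-0.083), and for MMTV-PyMT against WTNT in normalised counts (-0.00473). Between the days length was 0.18 in normalised counts, 0.000997 in reads and -0.017 thinned. With the 50 largest clonotypes, concentration was -0.39 for PLX3397 at d105 and 0.088 for MMTV-PyMT against WTNT. Thinned, 1 TRBV26 pair was called for PLX3397 at d105 (2 of 107 pairs, 1.87%). With a pseudocount of 1 CPM, or clonotypes found in 80% of libraries, limma called 0 TRBV26 clonotypes at d95 for R minus NR and 0 for PLX3397, and the 80% filter left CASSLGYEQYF untested. Between the days 8 were called with a pseudocount of 1 CPM and 3 without the library under 10% of the median reads. Matching counts over all shared clonotypes are not given here, so these counts describe TRBV26 alone. Against other V segments TRBJ1-1 (-0.28), TRBJ1-4 (-0.48) and TRBJ2-4 (0.058) turned in normalised counts, and TRBJ1-4 (-0.99), TRBJ1-5 (-0.084) and TRBJ2-7 (0.35) in reads. Between the days TRBJ1-1 (0.037) and TRBJ1-2 (0.22) turned thinned. Leucine (-0.44) and isoleucine (0.25) turned with 5 residues removed at each end. The causes were not tested.

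Without 1 library at a time, the share ran from 0.045 to 0.21 for R minus NR at d105, from -0.0082 to 0.035 for MMTV-PyMT against WTNT, from 0.084 to 0.31 for aPD-1 at d95 and from -0.36 to -0.13 for PLX3397 at d95. Length for PLX3397 at d105 ran from -0.027 to 0.048. Concentration ran from -0.26 to 0.061 for R minus NR at d105, from -0.11 to 0.040 for MMTV-PyMT against WTNT, from -0.29 to 0.00195 for R minus NR at d95, from -0.55 to -0.061 for aPD-1 at d95 and from -0.11 to 0.38 for PLX3397 at d95. Calls ran from 0 to 1 for pairs with aPD-1 at d95, from 0 to 0 for clonotypes with PLX3397 at d95 and from 2 to 7 for clonotypes between the days. The day difference in the TRBV26 share stayed past the threshold in every setting run. At d95 low yield sets the limit on clonotypes of few reads.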
